A study of Mus musculus with 6 samples.

Results

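Hedgehog pathway genes are described here in Prx1:Tdtomato-positive lateral plate mesenchymal cells (LPMs) of the mouse thoracic wall at E10.5, with and without a working copy of Ebf3. The 8 members are Shh, Ptch1, Smo, Gli1, Gli2, Gli3, Hhip and Sufu, taken by symbol from the 49585 features of the gene table. The controls were 3 heterozygous samples (Prx1-Cre Ebf3 flox/+), so that these too had lost 1 Ebf3 allele, and the other 3 samples were KO (Prx1-Cre Ebf3 flox/flox). All 6 were of the C57BL/6 strain by the labels (C57BL/6NCrSlc in the study's methods) and carried the Tdtomato reporter, R26RTdtomato, which Cre switches on. The floxed part of Ebf3 is exons 5 and 6, which encode DNA-binding sequence, and Prx1-Cre acts in limb bud mesenchyme and part of the lateral plate mesenchyme, so that cells outside this lineage kept Ebf3. Limb buds, heart and internal organs were cut away before the thoracic wall was dissociated and Tdtomato-positive cells were sorted. The labels do not say whether each sample was 1 embryo or several, nor whether samples of a genotype came from separate litters, so that the p-values below measure the spread between these samples only.

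Hedgehog ligands are secreted proteins that bind the receptor Ptch1 and thereby release the membrane protein Smo from inhibition. Active Smo turns the transcription factors Gli2 and Gli3 from repressors into activators at the primary cilium, where Sufu holds them back, and the activators raise transcription of Gli1, Ptch1 and Hhip. Levels of these last genes are therefore a common readout of signalling. In the embryonic trunk Shh is made by the notochord, the floor plate and the gut endoderm, and in the limb bud by posterior mesenchyme, while the neighbouring mesenchyme receives it.

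In these LPMs the receptor, the signal transducer, the inhibitors and all 3 Gli genes reached the minimum of 10 counts in 3 libraries. Shh did not, with 8 counts in the heterozygous and 5 in the KO libraries. Hhip, the weakest of those that did, had 45 counts in each genotype, and per transcript length its range overlapped that of Shh. Of the 7 members tested, 0 passed edgeR's quasi-likelihood test of KO against heterozygous LPMs. In this test 0 of 10891 genes (0.0%) passed an adjusted p of 0.05 (Benjamini-Hochberg). The log2 fold changes of KO over heterozygous LPMs ran from -0.25 for Gli3 to 0.12 for Ptch1, with a median of -0.04 against 0.0007 over all genes tested. An unadjusted p up to 0.05 was reached by 0 members, beside 2.15% of all genes tested (234 genes, 1.38% higher and 0.771% lower in KO LPMs). The 95% intervals of 6 of the 7 members lay within a 2-fold change in either direction, and those of 4 (Ptch1, Smo, Sufu and Gli2) lay within 1.5-fold.

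Sequencing gave 36931792 to 44536132 reads per library with 83.4% to 88.4% mapped, and the counts assigned to genes came to between 2088091 and 3525565 per library (4.69% to 9.55% of the reads). Levels are given as CPM, the counts of a gene scaled to the library total after TMM correction, with SDs taken across the 3 libraries of each genotype. Ebf3 itself stood at 94.6, 98.6 and 106 CPM in heterozygous replicates 1 to 3 and at 74.0, 43.1 and 60.7 CPM in KO replicates 1 to 3, with reads from the exons that Cre leaves in place included. From edgeR its log2 fold change was -0.74 with an SE of 0.18 (adjusted p = 1, unadjusted p = 0.00161). The 10 lateral plate and body wall markers, among them Prrx1, Twist1 and Tbx5, were all above the count minimum and summed to between 2608 and 2881 CPM in heterozygous and between 2346 and 2844 CPM in KO LPMs. Liver markers such as Afp stood apart in KO replicate 3, with a summed level of 261.7 CPM against 8.92 to 97.1 CPM in the other libraries.

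The promoters of Ptch1 and Hhip, which the pathway feeds back on, and of Smo, the member whose genotypes did not overlap, are shown as the 250 bases before the RefSeq transcription start (build GRCm38.p6, 5′ to 3′ on the strand of the gene). The windows are chr13:63565736-63565985 (minus strand) for Ptch1, chr8:80058009-80058258 (minus strand) for Hhip and chr6:29735247-29735496 (plus strand) for Smo. The Ptch1 window precedes the main transcript and lies inside the longer Ensembl gene, since some transcripts start further upstream. Capitals mark the 6-base core CCACCC (on the other strand GGGTGG) of the sequence that Gli proteins bind.
Ptch1: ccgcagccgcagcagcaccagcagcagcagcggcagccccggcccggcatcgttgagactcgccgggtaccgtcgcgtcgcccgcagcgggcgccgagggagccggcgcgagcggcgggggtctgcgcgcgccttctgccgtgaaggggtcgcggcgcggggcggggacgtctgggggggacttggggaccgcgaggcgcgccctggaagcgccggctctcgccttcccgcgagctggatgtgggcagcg
Hhip: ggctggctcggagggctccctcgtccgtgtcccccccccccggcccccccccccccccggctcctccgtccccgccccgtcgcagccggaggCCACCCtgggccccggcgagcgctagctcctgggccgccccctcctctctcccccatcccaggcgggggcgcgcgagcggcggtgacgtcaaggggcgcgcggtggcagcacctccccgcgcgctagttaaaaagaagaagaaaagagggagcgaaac
Smo: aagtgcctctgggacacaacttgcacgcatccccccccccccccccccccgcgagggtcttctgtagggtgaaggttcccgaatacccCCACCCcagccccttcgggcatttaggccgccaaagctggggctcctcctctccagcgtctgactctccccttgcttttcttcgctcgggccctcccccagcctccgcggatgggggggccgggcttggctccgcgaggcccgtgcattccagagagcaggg
The core stood at base 93 of the Hhip window and at base 89 of the Smo window, counted from the 5′ end, and was not among the letters of the Ptch1 window. RefSeq windows were found for 6 of the 8 members, and 4 of these 6 (Gli2, Gli3, Hhip and Smo) held the core, beside 28.1% of the 32851 windows of the same length. The full Gli consensus GACCACCCA (on the other strand TGGGTGGTC), which contains that core, was in 0 of the 6 windows and in 0.225% of all windows. The 6 windows were 54.0% (Sufu) to 78.4% (Ptch1) G and C, and the shares over all windows were not matched for this. Like that of Ptch1, the Gli3 window lies inside the longer Ensembl gene. These matches describe letters in short windows and are no measure of Gli binding.

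**Figure D1:**
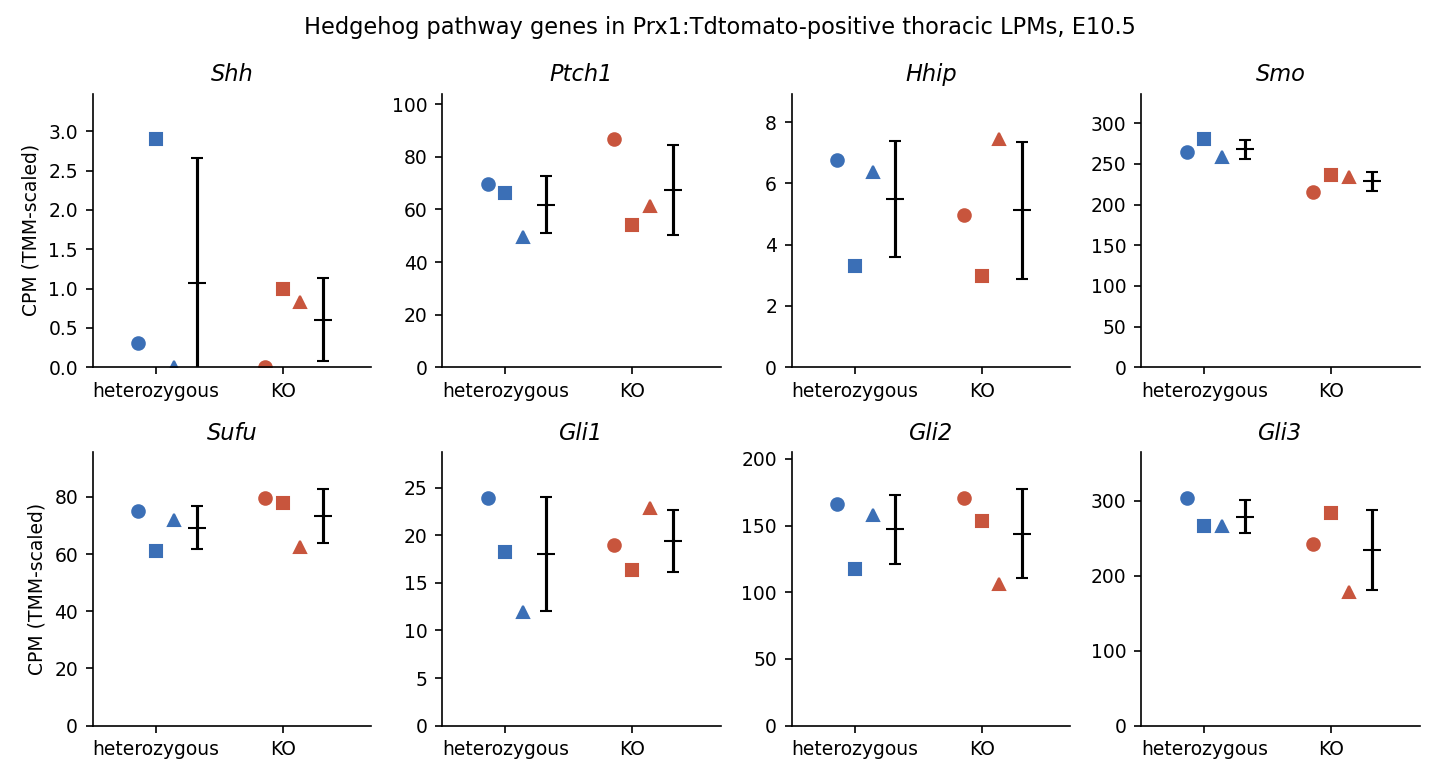
Levels of the 8 members in each library, as TMM-scaled CPM on linear axes that start at 0. Circles, squares and triangles are replicates 1, 2 and 3, blue heterozygous and red KO, with a horizontal tick for the mean and bars for 1 SD (n = 3; the Shh bar is drawn from 0). The genotypes overlap for every member except Smo, where the KO libraries reach from 215.3 to 236.5 CPM and the heterozygous libraries from 258.5 to 280.5 CPM.

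Shh, the ligand, was counted 1, 7 and 0 times in heterozygous replicates 1 to 3 and 0, 2 and 3 times in KO replicates 1 to 3. Together these gave a KO to heterozygous ratio of 0.629, with an exact 95% interval of 0.162 to 2.18 that covers counting error only. The ratio rested on heterozygous replicate 2, without which it was 3.52. A library at 0 counts still allows up to 1.25 CPM in heterozygous replicate 3 and up to 1.24 CPM in KO replicate 1 (3 counts of the library). A genotype difference of a few counts in Shh was therefore not detectable at this depth. The other ligands had fewer counts still: Ihh had 1 count in heterozygous and 3 in KO LPMs, and so had Dhh. Shh lies on chromosome 5 of GRCm38 from 28456815 to 28467256.

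Markers of the tissues that make Shh were counted beside it. Of the 7 notochord and floor plate markers, Noto was at 0 in all libraries, T had 2 counts in all and Foxa2 0 to 5 per library. Ntn1, which tissues other than the floor plate also make, was the gene of this list above the count minimum, with 16, 3 and 5 counts in heterozygous and 12, 12 and 18 in KO replicates 1 to 3. Its KO libraries lay narrowly above its heterozygous ones in CPM, the lowest KO library at 4.958 and the highest heterozygous library at 4.915. Of all genes tested, 3.95% had KO above in this way. The means of Ntn1 were 5.29 CPM in KO and 2.76 CPM in heterozygous LPMs, with an adjusted p of 1 from edgeR (unadjusted p = 0.124). The list summed to between 1.24 and 7.68 CPM in heterozygous and between 5.95 and 9.38 CPM in KO LPMs. Among the 5 posterior limb bud genes, Hoxd13 was counted 20, 18 and 0 times in heterozygous replicates 1 to 3 and 0 times in every KO library. Hoxd12 followed with 11, 13 and 0 counts against 0 in every KO library, and Hoxd11 with 5, 9 and 0 against 0, 2 and 0. The library with most Shh counts, heterozygous replicate 2, was thus one of the pair with counts of Hoxd12 and Hoxd13, while the other of that pair had a single Shh count. Tfap2b, another scarce gene of this list, did not share this pattern, with 5, 1 and 4 counts in heterozygous and 1, 1 and 7 in KO replicates 1 to 3. Hand2, the abundant gene of this list, is also a lateral plate marker. The 5 genes summed to between 81.8 and 134.2 CPM in heterozygous and between 60.0 and 81.4 CPM in KO LPMs. Most of each sum was Hand2, at 121.6, 89.1 and 80.1 CPM in heterozygous and 81.0, 58.5 and 78.3 CPM in KO replicates 1 to 3. Its genotypes overlapped, with a log2 fold change of -0.42 and an SE of 0.18 from edgeR (unadjusted p = 0.0452, not called after adjustment). The sums are therefore no level of limb bud cells. The part of the 5 genes in the Shh counts was not tested. All 7 epithelial markers had counts, and their sums overlapped between genotypes (243 to 380 CPM in heterozygous and 236 to 282 CPM in KO LPMs). Most of each sum was Krt8 (121.5 to 214.1 CPM) and Krt18 (76.9 to 141.3 CPM), which mesenchyme can also transcribe, whereas Epcam reached 1.66 to 7.99 CPM and Cdh1 0.426 to 12.6 CPM, so that the sums are no level of epithelium. Of the 8 neural tube and neuron markers, Sox2, Olig2, Nkx2-2 and Sox1 were at 0 throughout. The others had counts, and Elavl4 had most, with 10, 3 and 10 in heterozygous and 7, 4 and 18 in KO replicates 1 to 3. This list summed to between 2.49 and 6.81 CPM in heterozygous and between 1.98 and 10.2 CPM in KO LPMs.

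**Figure D2:**
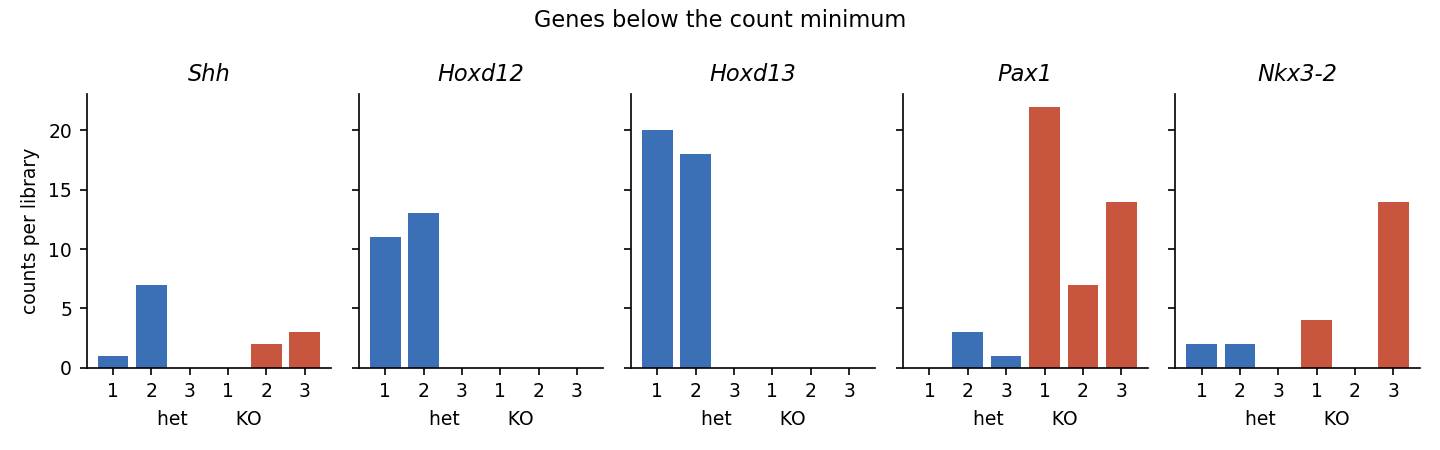
Counts per library of Shh, of the posterior limb bud genes Hoxd12 and Hoxd13 and of the sclerotome genes Pax1 and Nkx3-2, all below the minimum of 10 counts in 3 libraries. Bars start at 0, blue for heterozygous and red for KO replicates 1 to 3. Hoxd12 and Hoxd13 appear in heterozygous replicates 1 and 2 only, and Pax1 reaches 7 to 22 counts in KO and 0 to 3 in heterozygous libraries.

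Ptch1, the Hedgehog receptor and itself a target of the pathway, stood at 69.7, 66.3 and 49.4 CPM in heterozygous replicates 1 to 3 and at 86.8, 54.0 and 61.2 CPM in KO replicates 1 to 3. KO replicate 1 was the highest and heterozygous replicate 3 the lowest of the 6, and the genotypes overlapped. The means were 61.8 ± 10.9 CPM in heterozygous and 67.3 ± 17.2 CPM in KO LPMs (SD, n = 3). For Ptch1 edgeR gave a log2 fold change of 0.12 with an SE of 0.20 and a 95% interval of -0.32 to 0.56 (adjusted p = 1, unadjusted p = 0.561). The sign turned without KO replicate 1, to -0.10, or without heterozygous replicate 3, to -0.01. Ptch1 lies on chromosome 13 from 63508328 to 63573598.

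Gli1, a transcriptional activator made in response to signalling, stood at 24.0, 18.2 and 11.9 CPM in heterozygous and at 19.0, 16.4 and 22.9 CPM in KO replicates 1 to 3. The heterozygous libraries held both the highest and the lowest value, and the KO libraries lay between them. The means of 18.0 ± 6.02 and 19.4 ± 3.29 CPM (SD, n = 3) differed by less than either SD. The edgeR estimate on the log2 scale was 0.10 with an SE of 0.28 and a 95% interval of -0.50 to 0.71 (adjusted p = 1, unadjusted p = 0.712), and turned to -0.11 without heterozygous replicate 3 and to -0.04 without KO replicate 3. Gli1 lies on chromosome 10 from 127329889 to 127341589.

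Hhip, a membrane protein that binds Hedgehog ligands and limits their range, was the weakest of the tested members, with 22, 8 and 15 counts in heterozygous and 12, 6 and 27 counts in KO replicates 1 to 3. As CPM these were 6.76, 3.32 and 6.39 against 4.96, 2.98 and 7.45. The genotypes overlapped, and replicate 2 was the lowest library of either genotype. The means were 5.49 ± 1.89 CPM in heterozygous and 5.13 ± 2.24 CPM in KO LPMs (SD, n = 3), with 45 counts in each genotype. The log2 fold change from edgeR, -0.06 with an SE of 0.45 (adjusted p = 1, unadjusted p = 0.903), had a 95% interval of -1.05 to 0.94, a fold of 0.483 to 1.92, and its sign turned when heterozygous replicate 1, heterozygous replicate 3 or KO replicate 2 was left out. Hhip lies on chromosome 8 from 79965851 to 80058006. All 3 feedback targets thus had intervals that held 0, with the widest for the gene with fewest counts.

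Smo, the membrane protein that passes the signal on, was the member in which the genotypes stood apart. It reached 264.5, 280.5 and 258.5 CPM in heterozygous and 215.3, 236.5 and 233.6 CPM in KO replicates 1 to 3, so that every KO library lay below every heterozygous library. This was 1 of 7 members (14.3%), beside 7.46% of all genes tested whose genotypes did not overlap in either direction with 3.51% KO below and 3.95% KO above. The means were 267.8 ± 11.4 CPM in heterozygous and 228.4 ± 11.5 CPM in KO LPMs (SD, n = 3), a fold of 0.853 (95% interval 0.707 to 1.03). On the log2 scale edgeR put the change at -0.23 with an SE of 0.12 and a 95% interval of -0.50 to 0.04 (adjusted p = 1, unadjusted p = 0.0904). Its sign held when any single library was left out, at -0.26 to -0.19. In the authors' RPKM, which are scaled to mapped read pairs, the genotypes overlapped and KO replicate 3 had the highest value of all, 21.3 against 14.9 to 19.7 in heterozygous LPMs. Fewer cells that transcribe a gene and less RNA of it per cell cannot be told apart in sorted bulk samples, for Smo or any other gene here. Smo lies on chromosome 6 from 29735503 to 29761365.

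Sufu, which binds Gli proteins and holds them inactive, stood at 75.0, 60.9 and 72.0 CPM in heterozygous and at 79.7, 77.8 and 62.3 CPM in KO replicates 1 to 3. KO replicates 1 and 2 lay above every heterozygous library, while KO replicate 3 lay below heterozygous replicates 1 and 3, so that the ranges overlapped. The means were 69.3 ± 7.39 and 73.3 ± 9.55 CPM (SD, n = 3). For Sufu the log2 fold change from edgeR was 0.07 with an SE of 0.15 and a 95% interval of -0.26 to 0.41 (adjusted p = 1, unadjusted p = 0.643), and was -0.01 without heterozygous replicate 2. Sufu lies on chromosome 19 from 46396896 to 46488804.

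Gli2, the main activator of the pathway in the mouse, stood at 166.2, 117.7 and 158.0 CPM in heterozygous and at 171.0, 153.7 and 106.5 CPM in KO replicates 1 to 3. KO replicate 1 was the highest and KO replicate 3 the lowest of the 6, so that the KO range enclosed the heterozygous one. The means were 147.3 ± 25.96 and 143.7 ± 33.4 CPM (SD, n = 3). The estimate from edgeR was -0.04 on the log2 scale with an SE of 0.19 and a 95% interval of -0.47 to 0.38 (adjusted p = 1, unadjusted p = 0.831). Without KO replicate 3 it was 0.14, and it also turned positive without heterozygous replicate 1 or 3, at 0.06 and 0.01. Gli2 lies on chromosome 1 from 118834132 to 119053619.

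Gli3, the main repressor of the pathway when no ligand is present, stood at 304.1, 265.6 and 265.7 CPM in heterozygous and at 242.9, 283.6 and 177.9 CPM in KO replicates 1 to 3. KO replicates 1 and 3 lay below all heterozygous libraries, while KO replicate 2 was higher than heterozygous replicates 2 and 3. The means were 278.5 ± 22.2 and 234.8 ± 53.3 CPM (SD, n = 3). The log2 fold change from edgeR was -0.25 with an SE of 0.17 and a 95% interval of -0.63 to 0.13 (adjusted p = 1, unadjusted p = 0.171). It was negative whichever library was left out, but the size rested on the KO libraries: it was -0.41 (unadjusted p = 0.0374 from edgeR) without KO replicate 2 and -0.08 (unadjusted p = 0.618 from edgeR) without KO replicate 3. KO replicate 3, the library highest in summed liver (261.7 CPM), blood (21.0 CPM, against 0 to 4.14 CPM in the others) and endothelial markers (212.1 CPM, against 53.9 to 164.4 CPM), was the lowest for both Gli2 and Gli3, at 0.43 and 0.51 below the mean of the 6 libraries on the log2 scale, and the part of such cells in these values was not tested. Gli3 lies on chromosome 13 from 15463235 to 15730026.

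**Figure D3:**
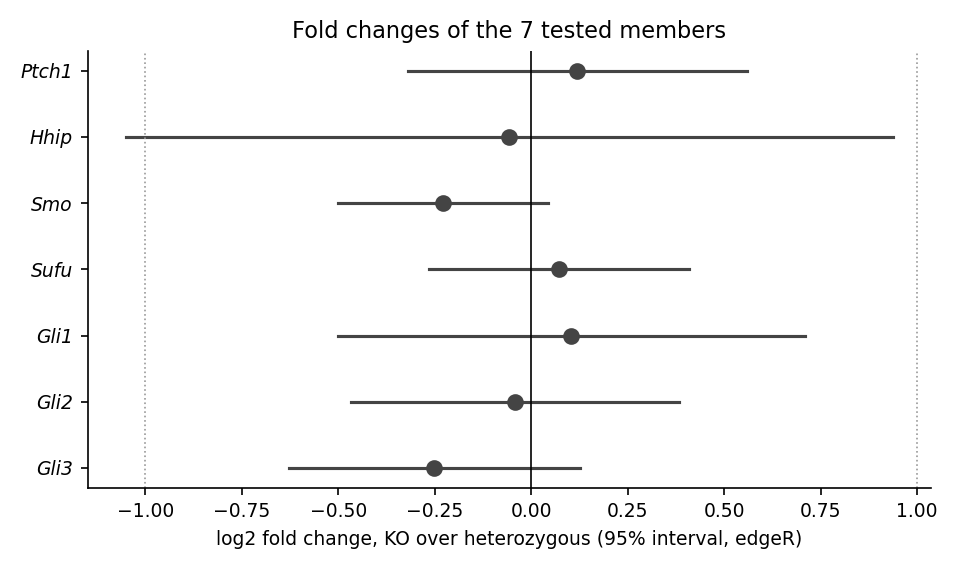
Log2 fold changes of KO over heterozygous LPMs for the 7 tested members, with 95% intervals from edgeR. Dotted lines mark a 2-fold change, and all 7 intervals hold 0. The interval of Hhip, the gene with fewest counts, reaches from -1.05 to 0.94.

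Levels can be compared between genes only per transcript length, and the authors' RPKM were used for this. In all 6 libraries the order was the same: Smo was highest, followed by Gli3, Gli2, Sufu, Ptch1, Gli1 and Hhip. In heterozygous LPMs Smo was at 17.3 ± 2.44, Gli3 at 7.15 ± 1.57 and Gli2 at 5.27 ± 1.43 RPKM (SD, n = 3). Sufu followed at 2.44 ± 0.524, Ptch1 at 1.75 ± 0.509, Gli1 at 1.24 ± 0.571 and Hhip at 0.149 ± 0.0623 RPKM (SD, n = 3). Smo, Gli3 and Gli2, which relay the signal, thus stood above Ptch1, Gli1 and Hhip, which it induces. In KO LPMs the RPKM levels were 14.8 ± 5.69 for Smo, 5.67 ± 0.689 for Gli3, 4.86 ± 0.907 for Gli2 and 2.50 ± 0.589 for Sufu (SD, n = 3). Those of the feedback targets were 1.88 ± 0.723 for Ptch1, 1.35 ± 0.719 for Gli1 and 0.152 ± 0.117 for Hhip (SD, n = 3).

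Not every step of this order was larger than the spread between libraries. In each genotype the ranges of Gli3 and Gli2, of Sufu and Ptch1, and of Ptch1 and Gli1 overlapped, whereas Smo stood clear of Gli3, Gli2 of Sufu, and Gli1 of Hhip. Within a library, Smo exceeded Ptch1 5.74 to 12.1 times and Gli3 exceeded Gli2 1.02 to 1.62 times in RPKM. Gli3 exceeded Gli1 4.86 to 8.53 times in heterozygous and 2.98 to 6.65 times in KO LPMs, which overlap. Of the 11 such ratios of RPKM computed between members, all had overlapping genotypes.

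**Figure D4:**
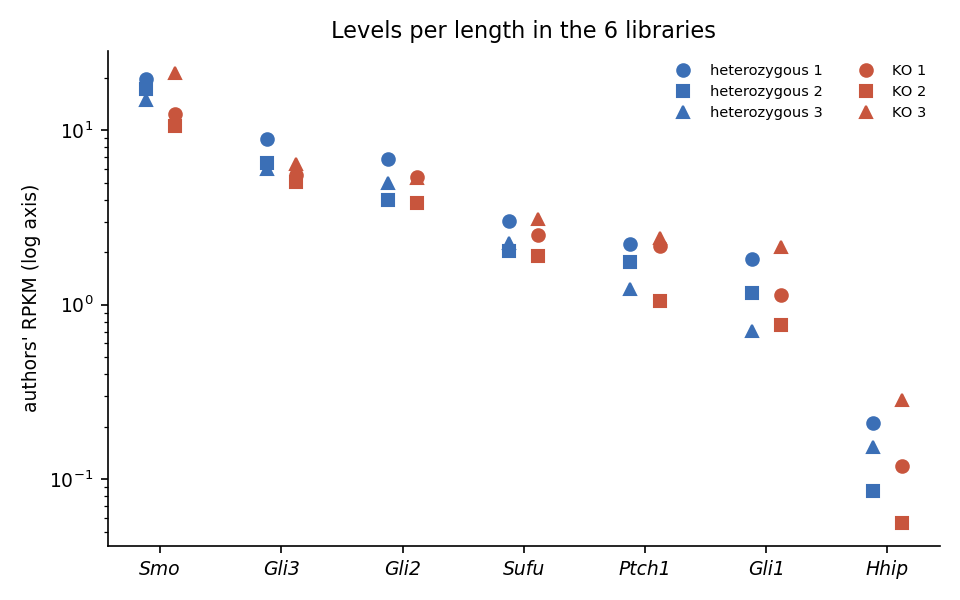
RPKM of the 7 tested members in each library, on a log axis, ordered by level, with blue heterozygous and red KO points and 1 marker shape per replicate. Smo lies highest, between 10.7 and 21.3 RPKM, and Hhip lowest, between 0.0559 and 0.282 RPKM. The order of the genes is the same within every library.

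The members also varied among the libraries in different ways. Around its own mean over the 6 libraries, Smo spread least (root mean square of 0.13 on the log2 CPM scale) and Sufu next (0.15), while Gli3 (0.25), Gli2 (0.26), Ptch1 (0.26) and Gli1 (0.32) spread more and Hhip most (0.44). Smo had 477 to 861 counts per library, Gli1 28 to 83 and Hhip 6 to 27. The part of counting error in these spreads, and in the comparisons of pattern below, was not tested. Gli1 and Ptch1 shared their lowest library, heterozygous replicate 3, where they lay 0.59 and 0.36 below their means. They parted in KO replicate 1, the highest for Ptch1 at 0.45 above its mean, where Gli1 was at 0.05. The genes of most like pattern to Gli1, by the root mean square difference of mean-centred log2 CPM over the 6 libraries, were Rab13 (0.09), Efna3 (0.09) and Rras (0.09), out of 10890 other genes. Ptch1 ranked 793 on this measure (0.26) and Hhip 8166 (0.47). Closest to Ptch1 were Tyw3 (0.05), Map10 (0.07) and Col23a1 (0.07), with Gli1 at rank 2325. Their log2 fold changes of KO over heterozygous LPMs were between 0.03 for Rras and 0.26 for Efna3. With 6 libraries and this many genes, close matches of pattern say nothing about shared control.

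The wider pathway was followed in 61 further genes, of which 48 passed the count minimum. The fitted log2 fold change was above 0 for 28 of these 48 and below 0 for 20, with a median of 0.05. At an unadjusted p up to 0.05 from edgeR there were 2 genes (4.17%, beside 2.15% of all genes tested), of which Foxf1 was the higher and Tulp3 the lower, and 0 passed an adjusted p of 0.05. The genotypes did not overlap for 6 of the 48 (12.5%, beside 7.46%), with KO above for Hhat, Prkacb, Kctd11 and Foxf1 and KO below for Tulp3 and Grk2.

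Foxf1, a forkhead gene of splanchnic and lateral plate mesoderm that Hedgehog signalling activates, stood at 6.76, 7.05 and 6.39 CPM in heterozygous and at 8.68, 12.4 and 17.7 CPM in KO replicates 1 to 3. The heterozygous libraries lay close together and the KO libraries spread upwards from them, with means of 6.73 ± 0.330 and 12.9 ± 4.51 CPM (SD, n = 3). In edgeR this came to a log2 fold change of 0.96 with an SE of 0.34 (adjusted p = 1, unadjusted p = 0.016). KO replicate 3, highest in liver, blood and endothelial markers, also had the most gene counts of the 6 libraries (3525565). It held 64 of the 110 KO counts of Foxf1, and without it the log2 fold change was 0.63 (unadjusted p = 0.122 from edgeR). The part of other cells in the Foxf1 change was not tested. Foxf1 is on the lateral plate marker list as well. Its 8 fellow target genes that were tested had log2 fold changes of -0.39 to 0.16, among them Bmp4 (-0.22, SE 0.17), a secreted growth factor, Bcl2 (-0.39, SE 0.36), a survival gene, and Ccnd1 (0.0017, SE 0.15), a cell cycle gene. For none of these 8 was the unadjusted p from edgeR below 0.21.

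Tulp3, which carries membrane proteins into the cilium and restrains the pathway, stood at 57.1, 66.3 and 67.7 CPM in heterozygous and at 51.2, 43.1 and 52.7 CPM in KO replicates 1 to 3. All KO libraries lay below all heterozygous libraries, with means of 63.7 ± 5.74 and 49.01 ± 5.14 CPM (SD, n = 3). In edgeR this came to -0.37 on the log2 scale with an SE of 0.15 (adjusted p = 1, unadjusted p = 0.0332). Leaving out heterozygous replicate 2, heterozygous replicate 3 or KO replicate 2 raised the unadjusted p from edgeR to 0.0862, 0.107 and 0.101. Of the 13 genes of signal relay at the cilium, 7 had a log2 fold change above 0 and 6 one below 0 (median 0.19). They included Evc (0.37, SE 0.20), a partner of Smo at the base of the cilium, and Grk2 (-0.24, SE 0.13), a kinase that acts on active Smo, with unadjusted p of 0.0824 and 0.0864 from edgeR.

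No gene of the other role groups had an unadjusted p up to 0.05. Among 7 tested genes of ligand release and transport, 4 had a log2 fold change above 0 and 3 one below 0. The smallest p-values there, all with an adjusted p of 1 from edgeR, belonged to Gpc6, Gpc4 and Hhat. The glypicans Gpc6 and Gpc4, heparan sulfate proteoglycans of the cell surface, had log2 fold changes of -0.39 (SE 0.20) and 0.65 (SE 0.45), and Hhat, which palmitoylates the ligand, had one of 0.41 (SE 0.29). Of the 4 tested receptors and coreceptors, Lrp2 (-0.43, SE 0.30), Cdon (-0.17, SE 0.15) and Gas1 (-0.09, SE 0.13), which help the cell take up or bind the ligand, had log2 fold changes below 0 and Boc had one of 0.10 (SE 0.17). The 15 kinases and degradation factors of the Gli proteins had log2 fold changes of -0.23 to 0.41 with a median of 0.04. For the catalytic subunits of protein kinase A, which marks Gli proteins for processing, the values were 0.21 for Prkacb (SE 0.13) and -0.20 for Prkaca (SE 0.13), and for Spop, an adaptor that sends Gli proteins for degradation, -0.23 (SE 0.18).

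**Figure D5:**
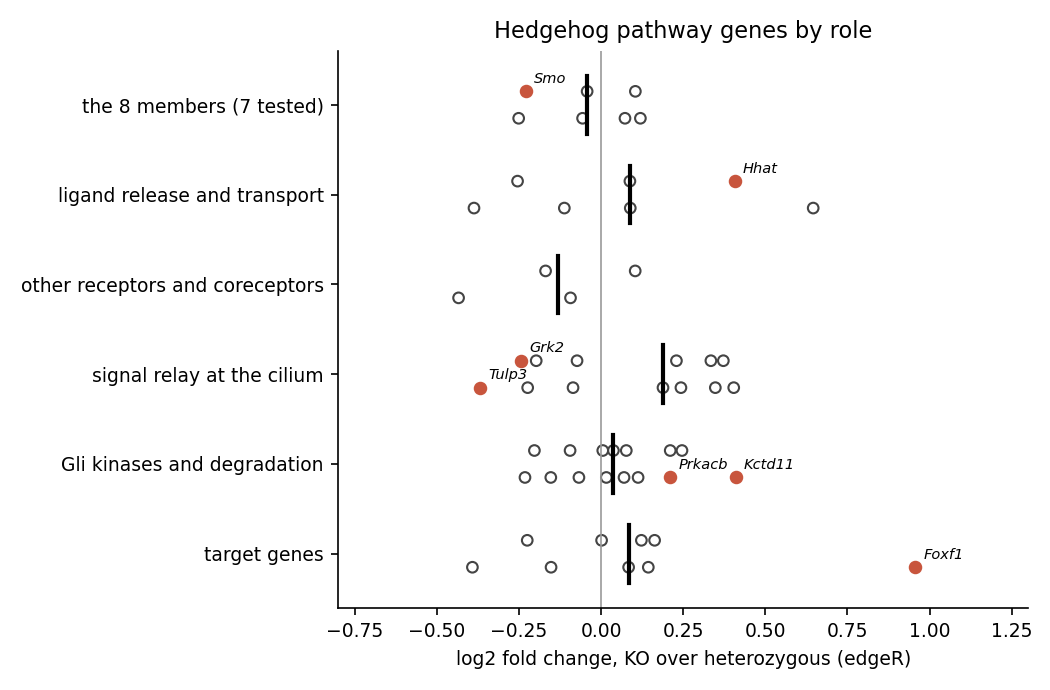
Log2 fold changes of KO over heterozygous LPMs (edgeR) for the tested members and wider pathway genes, 1 row per role. Each circle is a gene, filled and named where the genotypes did not overlap, and the black bar is the median of the row, from -0.13 for the other receptors to 0.19 for signal relay at the cilium. Foxf1, at 0.96, lies furthest from 0.

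The 13 wider genes below the count minimum included 8 of the 17 target genes. Pax1, a sclerotome gene that depends on Shh, was counted 0, 3 and 1 times in heterozygous and 22, 7 and 14 times in KO replicates 1 to 3. These 4 and 43 counts gave a ratio of 10.8 (exact 95% interval 3.93 to 41.5, counting error only), which stayed between 6.47 and 30.3 when any single library was left out. With no count minimum, edgeR gave Pax1 an adjusted p of 0.0295 (unadjusted 5.53e-05), in a fit of 18119 genes that called 38 where the fit with the minimum called 0. That fit also called Hoxd13 (adjusted p = 0.000396) and Hoxd12 (adjusted p = 0.0334), which were at 0 in heterozygous replicate 3 as in the KO libraries. The liver gene Afp was called too, although its genotypes overlapped, with 195.3 CPM in KO replicate 3 and 6.94 CPM in KO replicate 2, and its unadjusted p was 0.0573 from edgeR with the minimum. Pax1 is named because of its values, and the minimum of 10 counts in 3 libraries had left it out. The sclerotome list of Pax1, Pax9, Nkx3-2 and Uncx summed to between 0.426 and 2.07 CPM in heterozygous and between 3.47 and 11.6 CPM in KO LPMs. Pax9, however, had 1 and 2 counts, Uncx was at 0 in all libraries, and Nkx3-2 had 2, 2 and 0 against 4, 0 and 14 counts. Foxd1, a forkhead target, had 3, 1 and 7 counts in heterozygous and 8, 3 and 18 in KO replicates 1 to 3, a ratio of 2.66 (1.29 to 5.89) that was 1.80 without KO replicate 3. Whether cells of the sclerotome were among those sorted was not tested.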

How the data were processed

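RNA of sorted thoracic LPMs was sequenced in 3 heterozygous and 3 KO samples, grouped by the genotype in the labels. Per the methods of the study, the authors sequenced SMARTer libraries on an Illumina NextSeq-500, and reads were mapped to mm10 with an Ensembl annotation from CLC, while the labels name mm9. The aligner and counter are not given in the sources used here. Of the symbols shared with GENCODE M21 (GRCm38), 91.0% had the same gene ends, so that coordinates here are GRCm38. Whether counting used strand is not given in the sources used here.

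The authors deposited counts per gene, RPKM, quantile-normalized values (a signal that is not whole numbers) and a summary of reads. RPKM were deposited scaled to the read pairs mapped as pairs, not to the gene counts, so that they served mainly to order genes, and between genotypes only as an alternative and a description. The table also holds the authors' fold changes and p-values of their own test, which were not used, nor were 6 further per-sample columns of log2 values.

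Genes needed a minimum of 10 counts in 3 or more libraries, which 10891 met. Their counts were compared by genotype alone with edgeR 4.0.16 under R 4.3.3, using TMM factors and the two-sided quasi-likelihood test (glmQLFit and glmQLFTest). P-values were adjusted over all of these by the Benjamini-Hochberg method. At 2088091 to 3525565 counts per library, genes of few counts fell below this minimum and were left out of the main fit. For these, ratios of summed counts have exact (Clopper-Pearson) 95% intervals that take each count as a separate molecule. With 3 libraries a genotype the smallest p of an exact permutation test is 0.1. The script was tested on simulated data.

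The members and gene lists were chosen with earlier results of these data known. Named genes are the 8 members, Ebf3, up to 3 tested genes of smallest p in each role group, defining genes of the marker lists, and the 3 genes of most like pattern to Gli1 and to Ptch1. Boc, Ccnd1, Kctd11 and the genes below the count minimum lie outside this rule and were named after their values were seen. The same holds for Ntn1, Tfap2b, Hand2, Krt8, Krt18 and Elavl4 of the marker lists. The values of 1 gene of the wider list are not reported here. The alternatives changed the test (DESeq2 1.42.0, or limma-voom from limma 3.58.1 with or without sample quality weights), the scaling (upper quartile, or no factors), the count minimum, or the unit (limma on RPKM with pseudocounts of 1 and 0.1, or on the quantile-normalized values). Others added a replicate block or omitted 1 library at a time. Promoter windows are RefSeq's (GRCm38.p6). Python 3.11.15, pandas 2.3.3 and numpy 2.4.6 made the tables.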

Additional observations from a re-analysis of the deposited data

How the results depend on the processing

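Of 118 values of the 7 tested members under the alternatives, 105 kept their sign, 13 turned, and 0 reached an adjusted p of 0.05. Smo and Gli3 stayed negative in every alternative, at -0.28 to -0.18 and -0.41 to -0.08. Leaving out 1 library gave log2 fold changes of -0.10 to 0.24 for Ptch1, -0.11 to 0.38 for Gli1, -0.19 to 0.14 for Gli2, -0.46 to 0.18 for Hhip and -0.0089 to 0.19 for Sufu. Among genes of like pattern it gave -0.0901 to 0.33 for Col23a1, -0.0659 to 0.23 for Map10, -0.10 to 0.34 for Rab13, -0.23 to 0.36 for Rras and -0.0458 to 0.25 for Tyw3. Hhip also turned, to 0.0007 with RPKM and a pseudocount of 1 and to 0.0893 with sample quality weights, and Rras to -0.0018 with quantile-normalized values. Hhip had no value with a minimum of 10 counts in every library.

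The 0 genes called became 5 and 1 with RPKM at pseudocounts of 0.1 and 1, 38 with no count filter over 18119 genes, 2 with the replicate block, and 0 to 1 when a library was left out. The wider pathway genes at an unadjusted p up to 0.05, 2 of 48 tested, became 1 with DESeq2 and with either RPKM pseudocount. They became 5 with sample quality weights, 6 of 60 with no count filter and 5 with the replicate block. Leaving out a library gave 1 to 8, with 8 of 48 without KO replicate 1 and 1 of 48 without heterozygous replicate 2. These counts stand beside those over all genes, where the 234 of 10891 at an unadjusted p up to 0.05 became 125 with DESeq2. They became 61 and 71 with RPKM, 492 with sample quality weights, 571 of 18119 with no count filter and 493 with the block. Without KO replicates 1, 2 and 3 they were 756 of 10677, 367 of 10830 and 127 of 10581. Without heterozygous replicates 1, 2 and 3 they were 224 of 10613, 230 of 10785 and 241 of 10762. Of the causes, only the number of genes tested is given by construction, and the others were not tested. Ebf3 had an adjusted p of 0.0054 with no count filter.

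The genotypes share replicate numbers in the labels, and the deviations of same-numbered samples correlated at 0.43, 0.19 and 0.01. Samples of unlike number correlated at -0.34 to 0.13. The same number gave the highest value for heterozygous replicates 1 and 2, while heterozygous replicate 3 correlated better with KO replicate 2 (0.13). The labels do not say what the numbers stand for, and the main fit did not take them as pairs. Whether same-numbered samples were handled together was not tested. With the replicate block the unadjusted p from edgeR was 0.0474 for Smo and 0.05 for Gli3, so that 2 members in place of 0 reached 0.05. Over all 10891 genes tested, 493 in place of 234 reached it with the block. The adjusted p from edgeR was 0.955 for both members.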

Other observations

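The authors' counts and RPKM do not describe the same reads for the scarcest member. With the exon length of Shh in GENCODE M21, 2847 bases, its RPKM stand for 7, 11 and 0 reads in heterozygous replicates 1 to 3 and 0, 3 and 6 reads in KO replicates 1 to 3, where the counts are 1, 7 and 0 and 0, 2 and 3. Over the table, 2401 to 3003 features per library had 0 counts and an RPKM above 0. Of the 8471 genes with at least 20 counts in all libraries, 64.0% had RPKM that correspond to 1 length in all 6 libraries within 1%. Both units placed the Shh reads in heterozygous replicates 1 and 2 and KO replicates 2 and 3. By RPKM heterozygous replicates 1 and 2, which held the Hoxd12 and Hoxd13 counts, had the most Shh reads. By counts heterozygous replicate 1 had fewer than KO replicates 2 and 3.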
